A study of Mus musculus with 24 samples.

Results

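TRBV1 and TRBV29 are the mouse TCRβ variable segments known from antibody work as Vβ2 and Vβ7. A TCRβ clonotype was taken here as a CDR3 amino acid sequence with its V and J segment, and clonotypes were chosen by V segment alone, from sequences without a stop codon and with at least 2 counts. Over 24 tumors this gave 2596 TRBV1 and 2044 TRBV29 clonotypes, 4640 of 47705 over all V segments. They held 135041 and 177312 counts. The tumors came from 12 female BALB/c mice that carried CT26 (CT26.CL25) colon carcinoma cells under the skin of both flanks, and each of the 4 groups held 3 mice with both tumors sequenced. Mice 6, 12 and 14 were untreated and had both tumors taken on day 13 (time-matched). Mice 4, 17 and 19 were untreated and had 1 tumor excised and the other taken 11 days later (time-separated). Mice 3, 11 and 20 had the same surgery and then 0.5 mg/kg decitabine (low dose DAC), and mice 7, 10 and 16 had 2 mg/kg (high dose DAC), given for 5 days from day 3 after surgery with harvest 4 days after the last dose. Decitabine inhibits DNA methylation. Every time-separated mouse, treated or not, went through the excision. In the decitabine groups the excised tumor was gone before the first dose, so a mean over the tumors of such a mouse joins an unexposed and an exposed tumor. Tumor 1 and tumor 2 are only the numbers the labels give, and which was taken first is not stated, so a difference between tumor 2 and tumor 1 carries no direction in time.

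The β chain of a T cell receptor is assembled from a V, a D and a J segment, and the bases added or lost at the joints make the CDR3, the loop that meets the antigen. Natural killer T (NKT) cells carry an invariant α chain, TRAV11 joined to TRAJ18, which binds lipids on CD1d. In mice this chain pairs mostly with Vβ8, above all TRBV13-2 (Vβ8.2), and less often with Vβ7 and Vβ2, the segments described here. TRBV1 and TRBV29 are also used by conventional T cells, and these libraries hold the chains separately, so no β clonotype can be assigned to an NKT cell. In the RefSeq table of the C57BL/6J genome (GRCm38.p6), Trbv1 is annotated as a V segment with Trbv2 as the next β segment, and Trbv29 lies between Trbv28 and Trbv30 and is annotated as a V segment pseudogene. In these BALB/c tumors stop codons took a median of 4.24% of TRBV29 counts and 5.03% of TRBV1 counts, against 6.58% of all TRBV counts (24 tumors, sequences with at least 2 counts).

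The clonotypes that shaped the shares are shown by their CDR3 bases, 5′ to 3′ from the deposited tables. For each segment they are the 3 with the highest share in any tumor, at most 1 per mouse. Capitals mark the bases that match neither the start common to at least 25% of the distinct sequences of the V segment nor the corresponding end of the J segment. In the 6 sequences listed they lie between these ends, where the D segment and the joints are.
TRBV1 with TRBJ2-3, mouse 20: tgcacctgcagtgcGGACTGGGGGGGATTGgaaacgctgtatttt
TRBV1 with TRBJ1-2, mouse 4: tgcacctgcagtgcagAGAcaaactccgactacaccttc
TRBV1 with TRBJ2-5, mouse 11: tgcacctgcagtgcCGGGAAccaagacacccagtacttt
TRBV29 with TRBJ2-7, mouse 3: tgtgctagTGGAGGGGTtgaacagtacttc
TRBV29 with TRBJ2-4, mouse 7: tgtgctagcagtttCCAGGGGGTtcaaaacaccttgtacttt
TRBV29 with TRBJ2-2, mouse 10: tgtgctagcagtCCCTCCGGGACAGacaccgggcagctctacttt

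The retained TCRβ libraries held 63291 to 887567 counts and the TCRα libraries 26623 to 846655. The 6 time-matched TCRβ libraries held 375898 to 610800. The counts are the numbers of reads the authors' software listed per sequence, and whether reads with the same molecular identifier had been merged is not stated, so intervals and limits cover counting error only. In whole tumors fewer cells with a segment and less receptor RNA per cell cannot be told apart. The files hold receptor sequences alone, so the tumor label could not be checked against tumor markers. Nothing in the labels ties a sample to a sequencing batch, and the time-matched libraries were deeper than most others.

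TRBV1 took 2.51% ± 1.97 of TCRβ counts (SD, n = 12 mice, each the mean of its tumors) and ranked 9 of 25 TRBV segments. Over the 24 tumors its share ran from 0.266% to 11.1% with a median of 1.59%. In the time-matched mice, tumor 1 and tumor 2 held 1.76% and 2.19% (mouse 6), 0.619% and 0.490% (mouse 12) and 0.981% and 0.861% (mouse 14). These 6 tumors were at or below 2.19%, and the tumors of a mouse were close to each other. The untreated time-separated pairs held 4.48% and 4.90% (mouse 4), 2.27% and 1.06% (mouse 17) and 5.99% and 0.391% (mouse 19). With low dose DAC the shares were 3.33% and 0.411% (mouse 3), 4.52% and 1.42% (mouse 11) and 11.1% and 4.16% (mouse 20). With high dose DAC they were 2.35% and 1.07% (mouse 7), 3.81% and 0.266% (mouse 10) and 1.21% and 0.576% (mouse 16). Tumor 2 was the lower one in 8 of the 9 time-separated mice, with mouse 4 as the exception, and its values in 3 of the 8 (mice 3, 10 and 19) were below the lowest time-matched tumor. Exact 95% binomial intervals were narrow, for example 0.362% to 0.464% for the 260 TRBV1 counts of tumor 2 of mouse 3, the fewest of any tumor.

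TRBV29 took 3.05% ± 3.05 of TCRβ counts (SD, n = 12 mice) and ranked 8, with a median over the 24 tumors of 1.56% and a range from 0.165% to 13.2%. The time-matched pairs held 1.20% and 1.06% (mouse 6), 0.219% and 0.165% (mouse 12) and 1.07% and 1.20% (mouse 14). The untreated time-separated pairs held 1.28% and 4.08% (mouse 4), 2.49% and 2.49% (mouse 17) and 4.33% and 0.424% (mouse 19). Mouse 17 was the one time-separated mouse whose tumors had equal shares at the digits given. With low dose DAC the shares were 13.2% and 4.62% (mouse 3), 0.562% and 1.92% (mouse 11) and 1.83% and 0.224% (mouse 20). With high dose DAC they were 8.43% and 6.36% (mouse 7), 4.73% and 10.2% (mouse 10) and 0.838% and 0.308% (mouse 16). The high values belonged to 3 mice, 3, 7 and 10, and the other tumors stayed at or below 4.33%. TRBV1 and TRBV29 were not shown to differ across mice. TRBV1 was the higher one in 7 of 12 mice, and the difference of −0.54 ± 3.82 percentage points (SD) had p = 0.626 (exact sign-flip test, n = 12; all tests in the text were two-sided). The difference changed sign, to 0.340, with the largest clonotype of each segment left out of each mouse, and to 0.0480 without mouse 3.

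**Figure D1:**
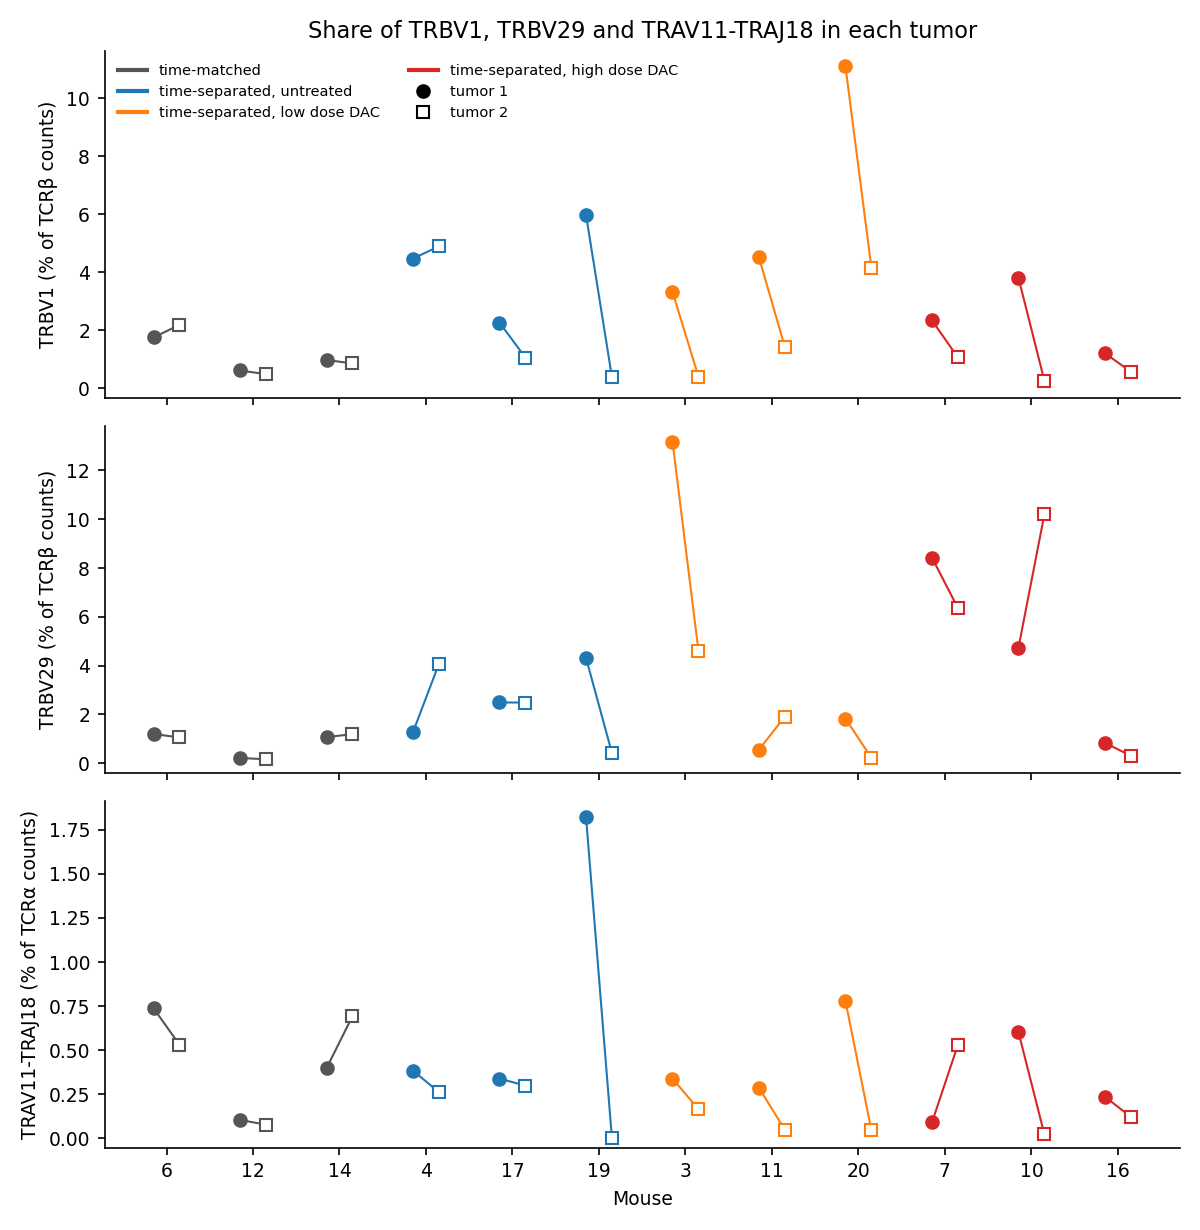
Share of TRBV1 and TRBV29 in TCRβ counts and of TRAV11-TRAJ18 in TCRα counts (y axes, percent) in tumor 1 (filled circle) and tumor 2 (open square) of each mouse (x axis), with lines joining the tumors of a mouse and colours giving the group. Time-matched pairs lie close together for both β segments, while TRBV1 is lower in tumor 2 in 8 of 9 time-separated mice and TRBV29 in 6 of 9.

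The harvest scheme was compared first, as the 3 time-matched against all 9 time-separated mice. Neither segment passed the test. TRBV1 averaged 1.15% ± 0.736 in time-matched and 2.96% ± 2.07 in time-separated mice (SD, n = 3 and 9; exact permutation test, p = 0.15, adjusted p = 0.606 over 25 TRBV segments). TRBV29 averaged 0.819% ± 0.543 and 3.79% ± 3.20 (exact permutation test, n = 3 and 9, p = 0.15, adjusted p = 0.606). As shares of clonotypes the differences of 1.81 and 2.97 percentage points were 0.719 and 1.69 (0.431 and 0.599 with near-identical sequences merged), and they were 1.27 and 1.45 in counts once the largest TRBV1 or TRBV29 clonotype had been removed. Of all 25 segments tested 0 passed, so the background was 0%, and 1 had an unadjusted p below 0.05. With the 3 untreated time-separated mice alone as the comparison, TRBV1 averaged 3.18% ± 1.51 and TRBV29 2.52% ± 0.153 (exact permutation test, n = 3 and 3, p = 0.2 and p = 0.1, where 0.1 is the smallest p possible, adjusted p = 0.556 and 0.5). The mouse means of these groups did not overlap for TRBV29, which was 1 of 5 such segments among the 25 (20%).

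Decitabine dose was compared among the 3 time-separated groups. Mean TRBV1 shares were 3.18% without treatment, 4.16% with low dose and 1.55% with high dose DAC (exact permutation test across the 3 groups, n = 3 each, p = 0.325, adjusted p = 0.607). Mean TRBV29 shares were 2.52%, 3.72% and 5.14% (same exact permutation test, n = 3 each, p = 0.679, adjusted p = 0.886). Of the 25 segments 0 passed (0%), and 0 had an unadjusted p below 0.05. The SDs over mice were 1.51, 3.06 and 0.589 for TRBV1 and 0.153, 4.49 and 3.96 for TRBV29 in the untreated, low dose and high dose groups. The range of the 3 group means rested on single mice. For TRBV1 it went from 2.61 percentage points to 1.63 without mouse 20, and for TRBV29 from 2.63 to 1.47 without mouse 10, 1.504 without mouse 7, 4.01 without mouse 3 and 4.92 without mouse 16.

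The distance between the tumors of a mouse was then taken without regard to their numbers, as the absolute log2 ratio of their shares, a comparison chosen after the shares had been seen. For TRBV1 it was 0.28 ± 0.08 in time-matched and 1.92 ± 1.35 in time-separated mice (SD, n = 3 and 9; exact permutation test, p = 0.0636, adjusted p = 0.188). For TRBV29 it was 0.25 ± 0.14 and 1.59 ± 1.08 (exact permutation test, n = 3 and 9, p = 0.0682, adjusted p = 0.188). The tumors of mouse 4 for TRBV1, and those of mice 17 and 7 for TRBV29, were no farther apart than the widest time-matched pair. Of 18 segments with counts in every tumor 0 passed (0%), and 2 had an unadjusted p below 0.05. When shares of clonotypes replaced shares of counts, the gap between the groups in this distance was smaller for both segments.

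The signed difference was also chosen after its values had been seen. Across the 9 time-separated mice TRBV1 was 2.76 ± 2.38 percentage points lower in tumor 2 (SD; exact sign-flip test, n = 9, p = 0.00781), which after adjustment over 25 segments gave p = 0.195. TRBV29 was lower in 6 of the 9, with a difference of −0.78 ± 4.03 percentage points (exact sign-flip test, n = 9, p = 0.582, adjusted p = 0.856). No segment passed in count share (0%), and 5 had an unadjusted p below 0.05. The TRBV29 difference changed sign, to 0.339 as a share of clonotypes and to 0.188 in counts without mouse 3. As a share of clonotypes, each counted once, TRBV1 was lower in tumor 2 in 9 of 9 mice, by 2.54 percentage points on average, and passed (exact sign-flip test, n = 9, adjusted p = 0.0195), as did 6 of 25 segments (24%). It also passed with the largest TRBV1 clonotype of each mouse left out (−2.35 percentage points, exact sign-flip test, n = 9, adjusted p = 0.0326), where 5 of 25 segments passed (20%). TRBV5, whose share ran most like that of TRBV1, was lower by a similar amount, with −2.96 and −3.18 percentage points in these settings. Merging of near-identical sequences, described below with the diversity, brought the clonotype share difference to −1.52 percentage points (exact sign-flip test, n = 9, adjusted p = 0.215), with 0 of 25 segments past the test (0%) and 5 with an unadjusted p below 0.05. Tumor 2 also held fewer TCRβ counts in 7 of these 9 mice and fewer TCRβ clonotypes of all segments in 8 of 9. With all libraries thinned to 63291 counts, the smallest, the differences in count share were −2.75 percentage points for TRBV1 and −0.79 for TRBV29. Random thinning leaves the expected share of a segment unchanged, so these values cannot show the part of depth. Depth was not varied for the share of clonotypes. In the time-matched mice the TRBV1 difference was 0.0619 ± 0.322 percentage points (n = 3), and the time-matched and time-separated differences were not shown to differ (exact permutation test, n = 3 and 9, p = 0.0682).

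The largest TRBV1 clonotype of the series, the TRBJ2-3 sequence of mouse 20, took 4.48% of TCRβ counts in tumor 1 and 2.91% in tumor 2. It made up 40.4% and then 69.9% of the TRBV1 counts of those tumors and was found in no other mouse. The TRBJ1-2 sequence of mouse 4 took 1.16% of tumor 2 (1963 of 169451 counts), whereas tumor 1 had 0 of 173813, which allows a share of up to 0.00173%. The TRBV1 segment thus kept nearly the same share in the tumors of mouse 4 with different clonotypes in front. The TRBJ2-5 clonotype of mouse 11 took 1.13% of tumor 1 and 0.0304% of tumor 2.

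That TRBJ2-5 clonotype was the TRBV1 clonotype found in the most mice, 7 of 12. Beyond mouse 11 its highest share was 0.681% in tumor 1 of mouse 3, followed by 0.0910% in tumor 1 of mouse 7 and 0.0728% in tumor 1 of mouse 10, and tumor 2 of these 3 mice had 0 counts, which allows shares of up to 0.00474%, 0.00467% and 0.000742%. Its main bases differed between mice although the amino acid sequence was the same, with 6 distinct main nucleotide sequences among the 7 mice. They are given here because the variation sits at the joint.
Mouse 3: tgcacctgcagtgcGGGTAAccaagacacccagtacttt
Mouse 7: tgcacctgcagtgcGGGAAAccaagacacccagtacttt
Mouse 10: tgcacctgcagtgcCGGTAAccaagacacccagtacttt
Mouse 20: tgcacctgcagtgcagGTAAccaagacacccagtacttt
Mice 6 and 12: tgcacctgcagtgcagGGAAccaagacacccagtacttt

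The largest TRBV29 clonotype, the TRBJ2-7 sequence of mouse 3, took 10.5% of tumor 1 (19553 of 185931 counts, exact 95% interval 10.4% to 10.7%) and 3.23% of tumor 2. It ranked 2 and 8 among all TCRβ clonotypes of those tumors and made up 79.8% and 70.0% of their TRBV29 counts. The TRBJ2-4 sequence of mouse 7 took 6.35% and 3.79%, or 75.3% and 59.5% of the TRBV29 counts. The TRBJ2-2 sequence of mouse 10 took 1.26% and 3.30%, or 26.7% and 32.4% of the segment. In mice 3 and 7 a single clonotype thus carried most of the high TRBV29 share, while in mouse 10 most of it lay outside the largest clonotype.

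The TRBV29 clonotype found in the most mice was this same TRBJ2-7 clonotype of mouse 3, in 6 mice, but outside mouse 3 it had only 2 or 3 counts in 1 tumor of each of 5 mice. In 4 of those 5 the main bases were those printed for mouse 3, and mouse 16 had another main sequence. Its presence in 6 mice thus rests on counts that are at the count minimum or 1 above it. Among all TRBV1 clonotypes 110 of 2596 (4.24%) were found in at least 2 mice, among TRBV29 clonotypes 43 of 2044 (2.10%), and among all TRBV clonotypes 2195 of 47656 (4.61%).

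Diversity was measured with all TCRβ libraries thinned to 63291 counts, the smallest, as means of 20 draws. TRBV1 then had 16 to 242 clonotypes per tumor with a median of 97.9, and TRBV29 had 14.3 to 187 with a median of 62.3. The fewest TRBV1 clonotypes were in mouse 3 (tumor 2) and the most in mouse 20 (tumor 1), and for TRBV29 they were in mouse 19 (tumor 2) and mouse 10 (tumor 2). Time-matched and time-separated mice had 101 ± 19.8 and 101 ± 36.0 TRBV1 clonotypes (SD, n = 3 and 9; exact permutation test, p = 0.991). They had 62.1 ± 23.7 and 80.6 ± 38.7 TRBV29 clonotypes (exact permutation test, n = 3 and 9, p = 0.468), a difference of 18.5 that was 7.29 without mouse 12, 8.41 without mouse 10 and 30.9 without mouse 6. Of 16 segments tested in this way 0 passed after adjustment (0%), and 1 had an unadjusted p below 0.05. With sequences of 1 count kept before thinning, time-matched and time-separated mice had 151 ± 49.8 and 243 ± 117 TRBV1 clonotypes. For TRBV29 they had 89.7 ± 37.1 and 191 ± 92.1. The clonotype numbers and their difference thus depended on the count minimum.

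Whether clonotype numbers follow the size of the segment in each tumor was not tested. The counts of a segment were also thinned to those of its smallest tumor, 260 for TRBV1 and 216 for TRBV29. At that depth time-matched mice held 73.5 ± 8.60 TRBV1 clonotypes and time-separated mice 53.3 ± 6.59 (SD, n = 3 and 9; exact permutation test, p = 0.00455, the lowest that this design allows, adjusted p = 0.0364 over 16 segments). For TRBV29 the numbers were 46.6 ± 10.6 and 33.4 ± 9.25 (exact permutation test, n = 3 and 9, p = 0.0864, adjusted p = 0.227). With each segment thinned in this way 3 of 16 passed (18.8%), TRBV1, TRBV13-3 and TRBV16, each with fewer clonotypes in time-separated mice.

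In most tumors some of the clonotypes were sequences that differ at 1 base from one of the same V and J with at least 20 times the counts. Merging them removed a median of 20.2% of the TRBV1 and 25.2% of the TRBV29 clonotypes per tumor, against 28.9% over all segments, with a range of 0% to 48.2% for TRBV1 and 0% to 58.3% for TRBV29. After merging, time-matched and time-separated mice held 91.8 ± 9.87 and 81.2 ± 29.8 TRBV1 clonotypes and 57.6 ± 19.1 and 56.1 ± 18.6 TRBV29 clonotypes. With merged sequences and the segment's own counts thinned, TRBV1 again passed, at 69.8 ± 9.76 and 49.7 ± 5.61 clonotypes (SD, n = 3 and 9; exact permutation test, adjusted p = 0.0364), with 2 of 16 segments past the test (12.5%). TRBV29 had 44.5 ± 9.57 and 28.5 ± 9.75 (exact permutation test, n = 3 and 9, adjusted p = 0.116). The limit from depth given for the thinning of a segment's own counts holds here too.

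The normalized Shannon index, which runs from 0 to 1 and is low where few clonotypes hold most counts, was taken within each segment. For TRBV1 it was 0.819 ± 0.0536 in time-matched and 0.741 ± 0.124 in time-separated mice (SD, n = 3 and 9; exact permutation test, p = 0.336). For TRBV29 it was 0.666 ± 0.185 and 0.574 ± 0.191 (exact permutation test, n = 3 and 9, p = 0.495). Leaving out 1 mouse at a time gave differences of −0.098 (mouse 6) to −0.043 (mouse 20) for TRBV1 and −0.196 (mouse 14) to −0.021 (mouse 12) for TRBV29. Of 16 segments 0 passed after adjustment (0%), and 2 had an unadjusted p below 0.05. The lowest TRBV1 mouse mean was 0.462 in mouse 20, and the lowest TRBV29 means were 0.288 in mouse 7 and 0.299 in mouse 3, the mice whose largest clonotypes are printed above.

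Overlap between the tumors of a mouse was measured by the Morisita-Horn index within each segment, which is 1 for identical clonotype frequencies and 0 for none in common. For TRBV1 it was 0.893, 0.811 and 0.820 in time-matched mice 6, 12 and 14. In the untreated time-separated mice 4, 17 and 19 it was 0.189, 0.472 and 0.0315. Low dose DAC mice 3, 11 and 20 had 0.205, 0.454 and 0.837, and high dose DAC mice 7, 10 and 16 had 0.332, 0.265 and 0.465. Mouse 20, with its dominant TRBJ2-3 clonotype, was the one time-separated mouse within the time-matched range. The means were 0.842 ± 0.0449 and 0.361 ± 0.232 (SD, n = 3 and 9; exact permutation test, p = 0.0136, adjusted p = 0.109 over 16 segments). Of the 16 segments 0 passed after adjustment (0%), and 3 had an unadjusted p below 0.05. The unadjusted p was 0.0727 with the largest TRBV1 clonotype of each mouse left out and 0.0545 without mouse 6 (exact permutation tests, n = 3 and 9, and 2 and 9).

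TRBV29 overlap was 0.862, 0.810 and 0.756 in time-matched mice 6, 12 and 14, and 0.264, 0.679 and 0.124 in untreated time-separated mice 4, 17 and 19. Mice 3, 11 and 20 had 0.977, 0.0463 and 0.0590, and mice 7, 10 and 16 had 0.891, 0.915 and 0.640. The 3 mice with large TRBV29 shares thus had the highest overlap of all, above the time-matched mice. The means of 0.809 ± 0.0529 and 0.510 ± 0.387 were not shown to differ (SD, n = 3 and 9; exact permutation test, p = 0.286). With the largest TRBV29 clonotype of each mouse left out they were 0.407 and 0.439, so the direction turned. Whole TCRβ libraries had 0.984 ± 0.0150 and 0.697 ± 0.170. The mean overlap of either segment was below that of the library, as it was in 15 of 16 segments for time-matched and 14 of 16 for time-separated mice. TRBV5 had a difference of −0.48, like TRBV1 (exact permutation test, n = 3 and 9, adjusted p = 0.0727).

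**Figure D2:**
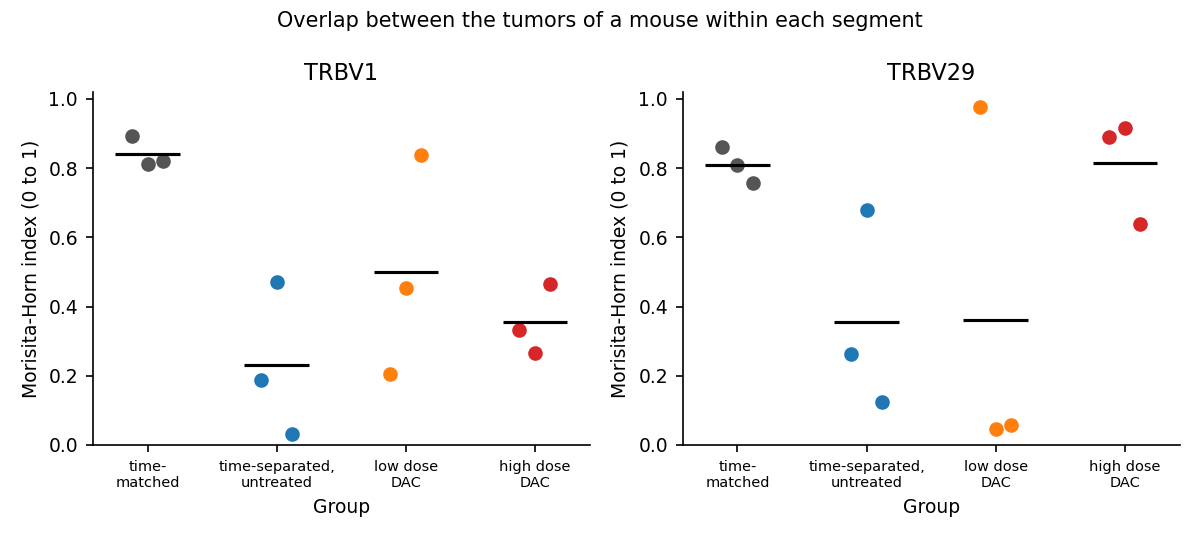
Morisita-Horn index (y axis, 0 to 1) between the tumors of each mouse within TRBV1 (left) and TRBV29 (right) by group (x axis), with points for mice and lines for group means. TRBV1 overlap is 0.811 to 0.893 in time-matched mice and below 0.5 in 8 of 9 time-separated mice, whereas TRBV29 overlap in time-separated mice runs from 0.0463 to 0.977.

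Clonotypes found in both tumors made up 14.4% to 20.8% of the TRBV1 clonotypes of a time-matched mouse and 1.83% to 16.0% in time-separated mice (medians 17.1% and 6.98%). For TRBV29 they made up 10.1% to 13.9% and 2.86% to 21.5% (medians 12.7% and 11.6%). These shares used all retained counts and so depend on depth, which was higher in the time-matched libraries.

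J partners were compared as the share of a segment's clonotypes that use a J segment, with each clonotype counted once, against the same share among clonotypes of all other TRBV segments. TRBV1 was joined to TRBJ1-4 more often, at 12.7% ± 5.22 against 4.89% ± 1.74 (SD, n = 12 mice). Over the mice the TRBV1 share ran from 5.03% through a median of 11.4% to 21.9%, and that of the other segments from 2.73% through 4.25% to 8.39%. It was higher in 12 of 12 mice, by 7.79 ± 6.31 percentage points (exact sign-flip test, n = 12, p = 0.000488, the smallest possible, adjusted p = 0.00806 over 264 V and J combinations). With near-identical sequences merged the shares were 12.4% and 6.00%, and TRBV1 was higher in 10 of 12 mice, with mice 10 and 14 as the exceptions (exact sign-flip test, n = 12, adjusted p = 0.0230). Of the 264 combinations 13.3% passed without merging, 1.14% upwards and 12.1% downwards, so TRBV1 with TRBJ1-4 was 1 of 3 raised combinations. TRBV1 had 1 of 12 J segments past the test and TRBV29 had 0 of 12.

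TRBJ2-7 led both segments. It took 15.1% ± 4.83 of TRBV1 clonotypes, against 20.4% ± 4.13 among other segments, and was lower in 10 of 12 mice (exact sign-flip test, n = 12, adjusted p = 0.139). With near-identical sequences merged this difference passed, at 16.2% against 24.1% (exact sign-flip test, n = 12, adjusted p = 0.0230), as did 35 of 264 combinations (13.3%), 31 of them downwards (11.7%). TRBJ2-1 was the third TRBV1 partner after TRBJ1-4, at 11.8% ± 3.45 against 15.8% ± 5.75 (exact sign-flip test, n = 12, adjusted p = 0.252).

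TRBV29 clonotypes used TRBJ2-7 at 26.7% ± 15.1, TRBJ2-1 at 11.6% ± 10.9 and TRBJ2-4 at 10.1% ± 15.0. The shares among other segments were 20.1%, 15.7% and 9.97%, and none of the 3 differences passed (exact sign-flip test, n = 12, adjusted p = 0.501, 0.650 and 1). These SDs were wider than those of the leading TRBV1 partners. By counts, TRBJ2-7 held 89.3% of TRBV29 in tumor 1 of mouse 3 and TRBJ2-4 held 80.2% in tumor 1 of mouse 7, the J segments of the clonotypes printed above. With each clonotype counted once, TRBJ2-7 took 60.4% in mouse 3 and TRBJ2-4 took 57.0% in mouse 7, both means of the tumors of the mouse. Merging of near-identical sequences left 58.0% and 40.8%, and no other mouse was above 9.17% for TRBJ2-4 before merging. TRBJ2-1 took 42.2% in mouse 4 (30.0% merged) and TRBJ2-7 took 41.4% in mouse 17 (27.1% merged), mice whose TRBV29 clonotypes are not among those printed. By counts TRBJ2-7 was the leading partner of TRBV29 in 14 of 24 tumors. The leading partner of TRBV1 varied more, with TRBJ2-3 in 6 tumors, TRBJ2-5 and TRBJ2-7 in 5 each and TRBJ1-4 in 3.

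**Figure D3:**
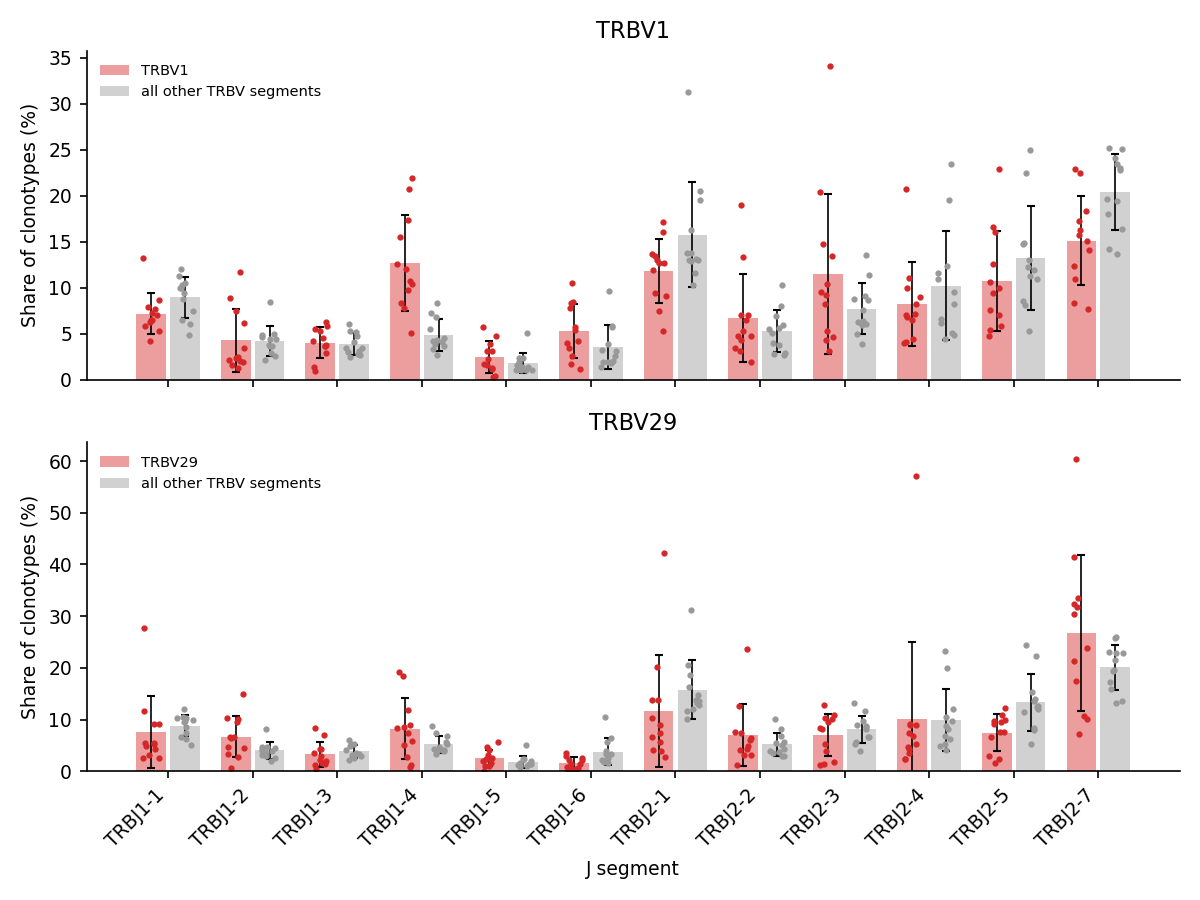
Share of clonotypes (y axis, percent) using each J segment (x axis) for TRBV1 (top) and TRBV29 (bottom) in red and for all other TRBV segments in gray, with points for the 12 mice, bars for means and error bars for SD. TRBJ1-4 stands out in TRBV1 at 12.7% against 4.89%, and in TRBV29 the highest points of TRBJ2-7 (60.4%, mouse 3) and TRBJ2-4 (57.0%, mouse 7) belong to the mice with a dominant clonotype of that J segment, while the highest point of TRBJ2-1 is mouse 4 at 42.2%.

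CDR3 loops were longer in TRBV1 and shorter in TRBV29 than in the other segments. TRBV1 clonotypes averaged 14.3 ± 0.194 amino acids against 13.7 ± 0.293 in all other TRBV segments (SD, n = 12 mice), longer in 11 of 12 mice by 0.563 (exact sign-flip test, n = 12, p = 0.000977, adjusted p = 0.00537 over 22 segments). TRBV29 clonotypes averaged 13.3 ± 0.602 against 13.7 ± 0.287, shorter in 9 of 12 mice by 0.443 (exact sign-flip test, n = 12, p = 0.0122, adjusted p = 0.0244). Without mouse 3 the TRBV29 difference was −0.29 amino acids and still passed (exact sign-flip test, n = 11, adjusted p = 0.0465). Of the 22 segments 11 (50%) passed this test, so a mean length apart from the rest was common. TRBV5 was longer still, at 14.49 amino acids, and exceeded its other segments in 12 of 12 mice by 0.815. TRBV2, TRBV13-1 and TRBV16 averaged 14.34, 14.34 and 14.37, against 14.26 for TRBV1. A length of 15 amino acids was the most frequent one in TRBV1, at 36.9% ± 7.09 of clonotypes, against 19.1% ± 3.06 in segments other than TRBV1 and TRBV29. TRBV29 had 10.0% ± 15.2 of its clonotypes at 10 amino acids, the length of the large clonotype of mouse 3. Mouse 3 held 52.4% of its TRBV29 clonotypes at this length (47.2% with near-identical sequences merged), mice 10 and 17 held 22.0% and 19.6% (21.3% and 11.4% merged), and the other 9 mice held 0% to 8.06%. The highest of these 9, mouse 11, had 2.17% after merging. Weighted by counts, TRBV29 no longer passed, at −0.38 amino acids (exact sign-flip test, n = 12, adjusted p = 0.420).

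**Figure D4:**
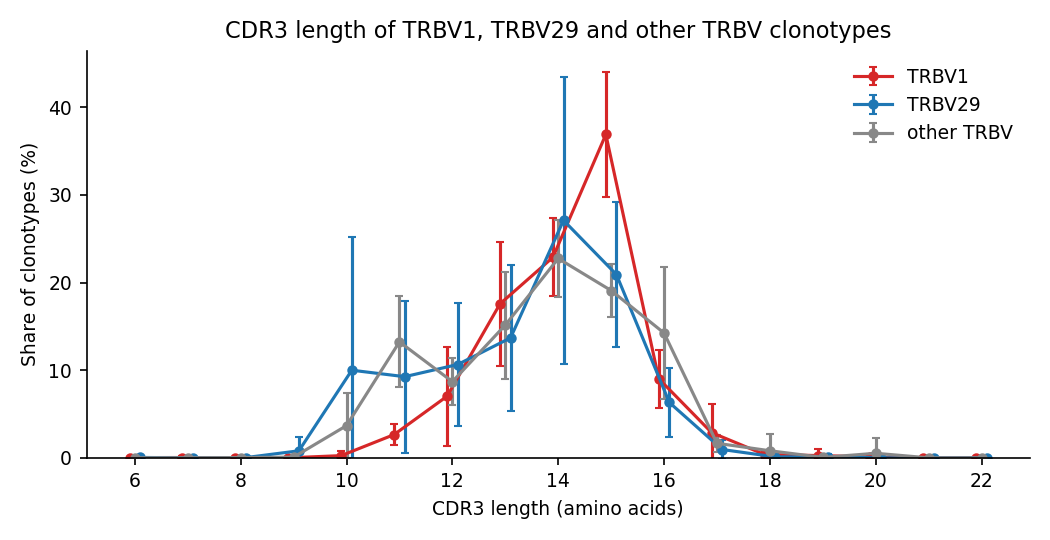
Share of clonotypes (y axis, percent) at each CDR3 length (x axis, amino acids) in TRBV1, TRBV29 and all other TRBV segments, as means over 12 mice with SD bars. TRBV1 peaks at 15 amino acids with 36.9%, where the other segments hold 19.1%, and TRBV29 has a wide SD at 10 amino acids.

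The relation to NKT cells was examined through the share of TRAV11-TRAJ18 in the TCRα counts of the same tumor. This chain was found in 23 of 24 tumors, and 98.4% of its 14687 counts had the CDR3 of 15 amino acids that marks the invariant chain. In the time-matched mice, tumor 1 and tumor 2 held 0.737% and 0.531% (mouse 6), 0.103% and 0.0769% (mouse 12) and 0.397% and 0.693% (mouse 14). The untreated time-separated mice held 0.383% and 0.261% (mouse 4), 0.338% and 0.298% (mouse 17) and 1.83% and 0 (mouse 19). Tumor 2 of mouse 19 had 0 of 87179 counts, which allows a share of up to 0.00344%. With low dose DAC the shares were 0.338% and 0.165% (mouse 3), 0.286% and 0.0467% (mouse 11) and 0.779% and 0.0443% (mouse 20). With high dose DAC they were 0.0892% and 0.530% (mouse 7), 0.602% and 0.0220% (mouse 10) and 0.235% and 0.121% (mouse 16). Tumor 2 was lower in 8 of 9 time-separated mice, with mouse 7 as the exception, as it was for TRBV1 with mouse 4 as the exception. TCRα counts were also lower in tumor 2 in 7 of these 9 mice, and the part of depth in the TRAV11-TRAJ18 share was not tested. Some shares rested on few sequences, with 4 in tumor 2 of mice 3, 7, 11 and 20 and 3 in that of mouse 10. The 0.530% of mouse 7 came from 141 of 26623 counts, the smallest TCRα library.

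Differences within mice take out what the tumors of a mouse share. Over 12 mice the difference in TRBV1 share and that in TRAV11-TRAJ18 share, both tumor 2 minus tumor 1, had Pearson r = 0.727 (permutation test, 100000 resamples, p = 0.00792, adjusted p = 0.0634 over 8 relations). Spearman rho was 0.615 (permutation test, p = 0.0377, adjusted p = 0.186), and 8 of 12 mice had the same sign. The relation thus missed the threshold after adjustment. Without mice 19 and 7, the farthest from the median TRAV11-TRAJ18 difference, r was 0.806 and rho 0.612 (permutation tests, n = 10, adjusted p = 0.0262 and 0.266). Within the 9 time-separated mice r was 0.724 and rho 0.817 (permutation tests, n = 9, adjusted p = 0.179 and 0.0873), and the 3 time-matched mice are too few for a value. With the largest TRBV1 clonotype of each mouse left out r was 0.756 and rho 0.671 (permutation tests, n = 12, adjusted p = 0.0238 and 0.163). As shares of clonotypes on both chains r was 0.613 and rho 0.420 (permutation tests, n = 12, adjusted p = 0.189 and 0.653), and 5 of 12 mice had the same sign. Leaving out any single mouse gave r between 0.697 and 0.763, with an adjusted p of 0.0502 to 0.139. Besides TRBV1, only TRBV29, TRBV13-2 and the sum of TRBV1 and TRBV29 were related to the TRAV11-TRAJ18 share. TRBV5 was also lower in tumor 2 in 8 and higher in 1 of the 9 time-separated mice, but its relation was not computed. Whether the relation is particular to TRBV1 was therefore not tested.

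For TRBV29 no relation within mice was detected, with r = 0.144 and rho = 0.0629 (permutation tests, n = 12, adjusted p = 0.944 and 0.973), although 8 of 12 mice had the same sign here too. Its r was −0.14 without mice 19 and 7 and −0.21 without mouse 19 alone, but 0.433 on log2 shares, 0.465 with the largest clonotypes left out and 0.299 as shares of clonotypes, none of which passed. TRBV13-2, the main NKT partner, had r = −0.07 and rho = 0.00699 (permutation tests, n = 12, adjusted p = 0.944 and 0.991), at 2.16% to 47.5% of TCRβ counts per tumor, and 3 of 12 mice had the same sign. Its r turned to 0.278 without mouse 19 and 0.239 without mice 19 and 7, and was −0.44 with its largest clonotypes left out and −0.55 as shares of clonotypes. The sum of TRBV1 and TRBV29 had r = 0.478 and rho = 0.217 (permutation tests, n = 12, adjusted p = 0.458 and 0.973), with the same sign in 8 of 12 mice. Leaving out 1 mouse at a time gave r of 0.191 (mouse 19) to 0.636 (mouse 3) for the sum. With the largest clonotypes left out r of the sum was 0.770 and passed, while its rho of 0.350 did not (permutation tests, n = 12, adjusted p = 0.0238 and 0.480). Whether the relations of TRBV1 and TRBV29 differ from each other was not tested.

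**Figure D5:**
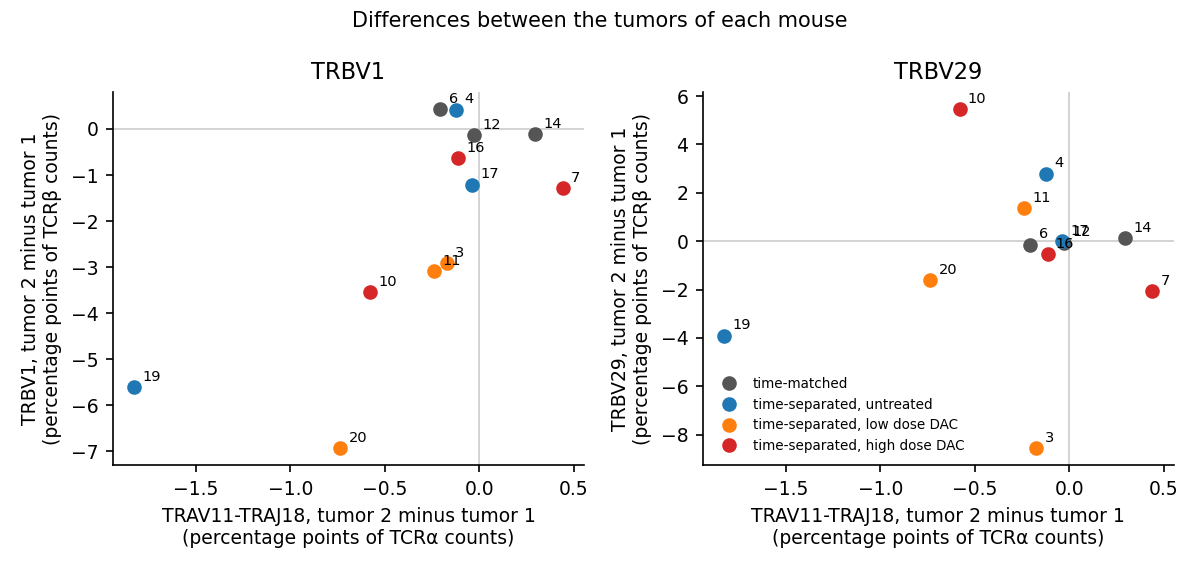
Difference between tumor 2 and tumor 1 in TRAV11-TRAJ18 share (x axis, percentage points of TCRα counts) against that in TRBV1 (left) or TRBV29 (right) share (y axes, percentage points of TCRβ counts), 1 point per mouse, numbered and coloured by group. Mice 10, 19 and 20 are low on both axes for TRBV1 (r = 0.727), while TRBV29 scatters (r = 0.144).

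Between mice, on means of both tumors, no relation passed over the 12 mice. TRBV1 had r = 0.204 and rho = 0.462 with the TRAV11-TRAJ18 share (permutation tests, n = 12, adjusted p = 0.944 and 0.357), and TRBV29 had r = −0.11 and rho = 0.0629 (adjusted p = 0.944 and 0.973 by permutation). The sum of both had r = 0.0236 and rho = 0.0979 (permutation tests, n = 12, adjusted p = 0.944 and 0.973). TRBV13-2 had r = −0.38 and rho = −0.59 (permutation tests, n = 12, adjusted p = 0.566 and 0.186). Without mouse 19 its rho of −0.82 passed and its r of −0.64 did not (permutation tests, n = 11, adjusted p = 0.0238 and 0.139). Without mice 19 and 6, the farthest from the median share, r of TRBV29 was 0.0692, a change of sign. As shares of clonotypes on both chains, r also changed sign, to −0.20 for TRBV1 and −0.37 for the sum.

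The segments whose shares ran most like that of TRBV1 over the 12 mouse means were TRBV5 (Spearman rho 0.867) and TRBV8 (rho 0.776), and for TRBV29 they were TRBV20 (rho 0.741) and TRBV14 (rho 0.713). All shares come from the same libraries and add up to the same total, so these values describe likeness only. TRBV5 also held TRBJ1-4 more often than other segments, at 10.1% ± 5.45 of its clonotypes against 4.93% ± 1.68 (exact sign-flip test, n = 12, adjusted p = 0.0344), which with TRBV1 made up 2 of the 3 raised combinations.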

How the data were processed

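TCRα and TCRβ libraries with unique molecular identifiers were made from RNA of whole tumors and sequenced by the authors, who called clonotypes with the Cogent NGS Immune Profiler. The deposited tables hold 1 count per sequence, not normalized or filtered, and whether reads with 1 identifier had been merged is not stated. The genome build is not given in the sources used here. Each table belongs to 1 sample, whose title gave mouse, tumor and group.

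Sequences with a stop codon or fewer than 2 counts were left out, after the study's methods, and its t-tests were replaced by exact tests. Groups were compared on 1 value per mouse, so p-values measure the spread between mice. Group tests permuted mice (smallest p 0.00455 for 3 against 9 and 0.1 for 3 against 3), paired tests flipped signs, and correlations used 100000 permutations (seed 20). Tests over segments or V and J combinations were run on all of them and adjusted by Benjamini-Hochberg, with a threshold of 0.05. Libraries were thinned without replacement in 20 draws. Exact intervals are Clopper-Pearson at 95%, and a share of 0 was limited by 3 counts. Log2 shares in the relations had 0.01 percentage points added.

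The J segments named were the 3 leading ones per segment and those past the test, the clonotypes were the 3 largest and the most widespread of each segment, and like segments were the 2 with the highest rho. Members, lists and tests were chosen with earlier results of these data known. Tests were checked on simulated data. Alternatives changed depth, count minimum, weighting, clonotype definition, largest clonotype, scale and mice. The comparison of tumor 2 with tumor 1, the thinning of each segment's own counts over 16 segments, the absolute log2 ratio, the adjustment of diversity over 16 segments and the merging of near-identical sequences were added after seeing the data. Scripts ran in Python 3.11.15 with scipy 1.17.1 for the tests, pandas 2.3.3 and numpy 2.4.6 for the tables, and matplotlib 3.10.9 for the plots.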

Additional observations from a re-analysis of the deposited data

Results flagged for a closer look

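In the low dose DAC group tumor 1 of mouse 3 had a TRBV29 share of 13.2%, far above the next highest tumor at 4.62%, and 158 TRBV29 clonotypes after thinning, against 75.1 in the next. In the untreated time-separated group tumor 1 of mouse 19 had a TRAV11-TRAJ18 share of 1.83%, with the next highest at 0.383%. Each stood apart from the other 5 tumors of its group by Dixon's criterion. The 6 tumors are pairs from 3 mice and so not independent, and the next highest TRBV29 share was in the other tumor of mouse 3. Of 28 sets of 6 tumors examined for 7 quantities 3 held such a tumor, and chance gives about 1 in 20 for independent values. The share and the clonotype number of mouse 3 come from the same counts and are not independent.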

How the results depend on the processing

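Over all alternatives 409 values of the comparisons kept their direction, where they had one, and their side of the threshold. Another 27 changed sign, whether or not they passed. Of the rest 8 newly passed the threshold or had more J partners called, and 3 no longer passed. With each clonotype counted once, TRBV1 in tumor 2 against tumor 1 of time-separated mice was −2.54 percentage points and passed, as with the largest clonotype left out (−2.35), where 24% and 20% of all 25 segments did, TRBV29 changed sign to 0.339, TRBV1 minus TRBV29 changed sign to 0.87 (1.43 with near-identical sequences merged, 0.340 in counts with the largest clonotype left out), and between mice r with the TRAV11-TRAJ18 share became −0.20 for TRBV1 and −0.37 for the sum. The difference in TRBV1 clonotype number (time-separated minus time-matched) changed sign to −21.8 without thinning, −20.2 with the segment's own counts thinned and −10.6 merged, and that of TRBV29 to −13.2 and −1.52 under the latter pair. With sequences of 1 count kept, both differences were positive and larger than in the main setting, with the values given above. With the largest clonotype left out the overlap differences were −0.29 for TRBV1, past the unadjusted threshold no longer, and 0.032 for TRBV29, a change of sign. Merging gave 2 TRBV1 J partners in place of 1, and lengths weighted by counts gave −0.38 for TRBV29. Between mice r of TRBV29 turned to 0.208 on log2 shares, 0.085 with the largest clonotype left out and 0.0692 without mice 19 and 6. Within mice r passed at 0.756 for TRBV1 and 0.770 for the sum with the largest clonotypes left out and at 0.806 for TRBV1 without mice 19 and 7, where TRBV29 was −0.14. Spearman rho passed in none of these 3 (0.671, 0.350 and 0.612, adjusted p = 0.163, 0.480 and 0.266 by permutation). Leaving out 1 mouse at a time gave −1.57 (mouse 10) to 0.188 (mouse 3) for TRBV29 in tumor 2 against tumor 1, −1.19 (mouse 20) to 0.048 (mouse 3) for TRBV1 minus TRBV29, −8.55 (mouse 20) to 11.5 (mouse 6) for TRBV1 clonotype number, and −0.54 to −0.44 for TRBV1 overlap. It gave 1 to 2 J partners for TRBV1 and 0 to 1 for TRBV29, where the added calls, without mouse 14, were TRBV1 with TRBJ2-7 and TRBV29 with TRBJ2-5. For r it gave −0.18 (mouse 12) to 0.117 (mouse 3) for the sum between mice and −0.21 (mouse 19) to 0.286 (mouse 10) for TRBV29 within mice. The causes were not tested. Counting TRAV11D changed no value, as no retained sequence carried it. The fewest clonotypes behind a TRBV1 value were 16.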
